A study of Fragaria x ananassa with 3 samples.

Results

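The new candidate miRNAs of 21 nt are small RNAs of strawberry fruit that the deposited list does not assign to a known plant miRNA but whose flanking genome sequence can fold into a hairpin. They were taken as the distinct names that the deposited list of mature sequences places in its class of new candidates and gives with 21 bases, after leaving out 7 individual names, 6 of them of 21 nt and 1 of 22 nt. This gave 162 names out of 168 candidates of 21 nt, 1225 candidates of all lengths and 1310 listed miRNA names. The fruit were Fragaria × ananassa of the cultivar Zhangji, picked at commercial maturity and kept at 20 °C and about 85% relative humidity, and small RNAs were sequenced after 24 h and after 0 h of storage. A degradome library, which records the 5′ ends of cleaved mRNAs, was made from 1 mixture of fruit stored for 0 h and 24 h. Each storage time is 1 library without replicates, so no test between storage times was possible. Intervals of folds are exact 95% counting intervals, and those of shares are exact 95% intervals over names. Neither kind covers the variation between fruits or libraries. Sequences were placed on the genome of the diploid woodland strawberry, Fragaria vesca genome 1.0, not on that of the cultivated octoploid.

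A plant miRNA is cut by the nuclease DCL1 from the paired stem of a hairpin transcript as a short duplex with overhanging 3′ ends. The strand that is kept guides an Argonaute protein, usually AGO1, which favours a uracil as the first base, and the partner strand is mostly degraded. Other Dicer-like enzymes cut small interfering RNAs from long double-stranded RNA. Those of DCL4 have the same length as most miRNAs, so that length alone does not tell them apart, while those of DCL3 are longer, begin mainly with adenine, are bound by AGO4 and its relatives and direct DNA methylation. In fruit, known miRNAs act on transcription factors and hormone pathways by guiding the cleavage of their mRNAs.

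The sequences below are those on which the results turn, written 5′ to 3′ with T for U, and the capitals mark bases 2 to 8, the seed. The first set holds the 8 most abundant names, the scarce partner of PC-5p-410_7468, and well-covered names at the upper and lower end of the folds.
PC-5p-224_13566: tATTGGCAgacttgaagcatt
PC-5p-437_6958: aGTGGTATcagggctatgtta
PC-5p-410_7468: aGGCTTTGtagaggatggaat
PC-3p-387861_10: tATTTCATcctctgcaaagtc
PC-3p-1366_2253: aTTGGAAAggtgagaagttgg
PC-5p-687_4397: aGTGGAGTtctgggaaagaag
PC-5p-395_7852: tGTAGAGCcaatggctgatcc
PC-5p-2061_1544: gGGTATAGgtgggtaggatag
PC-5p-931_3343: tTACCCTTgcaatatccgttg
PC-3p-5426_650: tCGACGGAtattgcaagggta
PC-3p-45119_80: gGAGTTGCaggtcgatcagga
PC-3p-32264_112: cCAATAAAgaagagtgggctt

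The second set shows candidates beside listed known miRNAs that they resemble. Known names carry suffixes for the bases in which they differ from the reference miRNA.
PC-5p-5963_595: tTGACGATgagagagagcacg
PC-3p-5218_674: cGTGCTCCctctcatcgtcat
mdm-miR535d_1ss7CT: tGACGATGagagagagcacgc
PC-5p-280652_13: tTGACGGAagagagcgagcat
sbi-miR156e_L+1_1ss6AG: tTGACGGAagagagcgagcac
PC-5p-47125_76: cTGACAGAagaagagtgagca
osa-miR156h-3p_2ss9CT14T-: gCTCGCTCttcttctgtcagc
PC-3p-65180_55: aGGTGCAGgtgtaagtgcaga
ptc-MIR530b-p3_1ss12CT: aGGTGCAGgtgtaagtgcag

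The third set holds the 2 largest groups of candidates that match one another, 5 names led by PC-5p-4495_773 and 3 names led by PC-3p-106225_33.
PC-5p-4495_773: tTTCAGCTaaattggtgatcg
PC-5p-21267_171: tTTCAGCTaatttagtgatcg
PC-5p-80877_44: tTTCAGCTaaattgatgatcg
PC-5p-287236_13: tTTCCGTTaaattggtgatcg
PC-5p-341470_11: tTCAGCTAatttagtgatcgt
PC-3p-106225_33: cATTATTGcgtcggctaaagt
PC-3p-263162_14: cGACATTAttgcgtcggctaa
PC-3p-217649_17: cGACATTAtttcgtcggctaa

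A hairpin sequence was at hand for 95 of the 162 names. The 2 printed here are the precursor of the candidate with the largest increase in reads and that of the candidate that overlaps miR535, with both named arms in capitals. They come from windows scf0513095:925076-925336 and scf0513164:1128571-1128831, both on the plus strand of genome 1.0.
PC-5p-410_7468 hairpin: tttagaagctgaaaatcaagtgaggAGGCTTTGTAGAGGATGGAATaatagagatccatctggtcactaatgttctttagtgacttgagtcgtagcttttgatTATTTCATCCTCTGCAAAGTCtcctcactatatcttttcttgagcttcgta
PC-5p-5963_595 hairpin: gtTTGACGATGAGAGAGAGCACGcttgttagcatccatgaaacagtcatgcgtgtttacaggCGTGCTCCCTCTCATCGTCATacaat

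The 162 candidates were many but mostly scarce. Together they had 32640 raw reads at 24 h, against 27100 at 0 h, which were 1.09% and 0.901% of the 2998588 and 3006293 reads of all listed miRNAs. The left-out names were far more abundant, since all 168 candidates of 21 nt together had 452314 raw reads at 24 h, against 344391 at 0 h. The 162 held 5.78% of the reads of all candidates at 24 h and 6.24% at 0 h. The median name had 49.5 raw reads over both libraries, between 5 and 9689, against 50 for all listed names. There were 8 names that reached 1000 raw reads in a library, a further 28 that reached 100, 21 that reached 50 and 99 that reached 10, and 6 stayed below 10 in both libraries. The 8 most abundant held 64.3% of the candidates' reads at 24 h and 63.7% at 0 h.

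The most abundant candidates were PC-5p-224_13566, PC-5p-437_6958 and PC-5p-410_7468, with 40.8% of the candidates' reads at 24 h and 39.5% at 0 h. PC-5p-224_13566 had 4598 raw reads at 24 h, against 5091 at 0 h, a fold of 0.834 on the normalized scale (interval 0.801 to 0.868). PC-5p-437_6958 had 3570 raw reads at 24 h, against 3997 at 0 h, a fold of 0.825 (0.788 to 0.863). Both were thus a little lower after storage, within the 2-fold threshold. PC-5p-410_7468 had 5149 raw reads at 24 h, against 1626 at 0 h, a fold of 2.92 (2.76 to 3.09), which made it the most abundant of the 162 at 24 h and the fifth at 0 h. All folds divide the normalized reads of the 24 h library by those of the 0 h library, and a name was called higher or lower when its log2 fold was above 1 or below -1 and its raw reads reached 10 in either library.

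**Figure D1:**
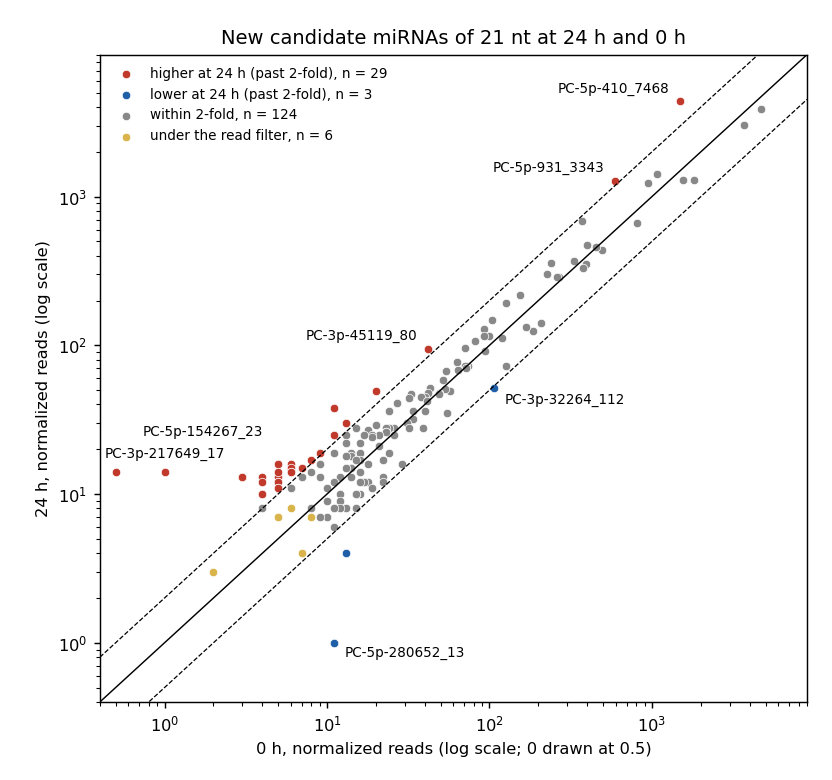
Normalized reads at 24 h (vertical axis) against 0 h (horizontal axis), both on log scales, for each of the 162 candidates of 21 nt. The solid line marks equal values and the dashed lines 2-fold; 29 names lie above the upper dashed line, mostly at few reads, and 3 below the lower one.

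More candidates of 21 nt were higher after storage than lower. Of the 156 names that reached 10 raw reads in either library, 29 (18.6%) were higher at 24 h and 3 (1.92%) were lower. Among all 1248 names that passed the same filter, 6.25% were higher and 3.69% lower. In the low library, 21 of the 29 higher names and 2 of the 3 lower ones had under 10 raw reads. Those names passed the filter only through the library where they were high. Candidates of 22 nt also had more names higher, with 7 higher (12.5%) and 2 lower of 56. Those of 23 nt had 5 higher and 5 lower of 115, and those of 24 nt 22 higher and 32 lower of 816. Among known miRNAs of 21 nt the counts were 7 higher and 3 lower of 66. Without any call, 98 of the 156 names had more normalized reads at 24 h, 56 had fewer and 2 had equal values. Their median log2 fold was 0.18, against 0.26 for candidates of 22 nt, -0.05 for those of 24 nt and 0 for all 1248. The split of calls among all names depended on the scaling, with 78 higher and 46 lower as given, 96 and 35 without scaling and 109 and 35 when scaled to the total of listed miRNAs, where the candidates of 21 nt had 32 and 2, and 34 and 2. The names share the same pair of libraries and are not replicates of the storage.

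Most of these calls rested on few reads. Of the 29 higher names, 25 had 10 to 49 raw reads in the higher library, the median higher name had 17 raw reads at 24 h, against 6 at 0 h, and for 14 of the 29 the counting interval included equal values. From 50 raw reads upwards, 4 of 57 names were higher and 1 lower. In the class of 10 to 49 raw reads, 25 of 99 candidates of 21 nt were higher (25.3%, interval 17.1 to 35.0%) and 2 lower, while 22 of 587 candidates of 24 nt were higher (3.75%, 2.36 to 5.62%) and 30 lower. Candidates of 22 nt in this class had 6 of 29 higher (20.7%, 7.99 to 39.7%) and those of 23 nt 5 of 88 (5.68%, 1.87 to 12.8%). At 50 or more raw reads no candidate of 24 nt was higher among 229, none of 23 nt among 27 and 1 of 22 nt among 27. Known miRNAs of 21 nt in that class had 5 of 49 higher (10.2%), against 7.02% for the candidates of 21 nt. These read classes were set after the values were known. The intervals of these shares treat names as independent, although all share both libraries and 26 candidates of 21 nt match one another.

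**Figure D2:**
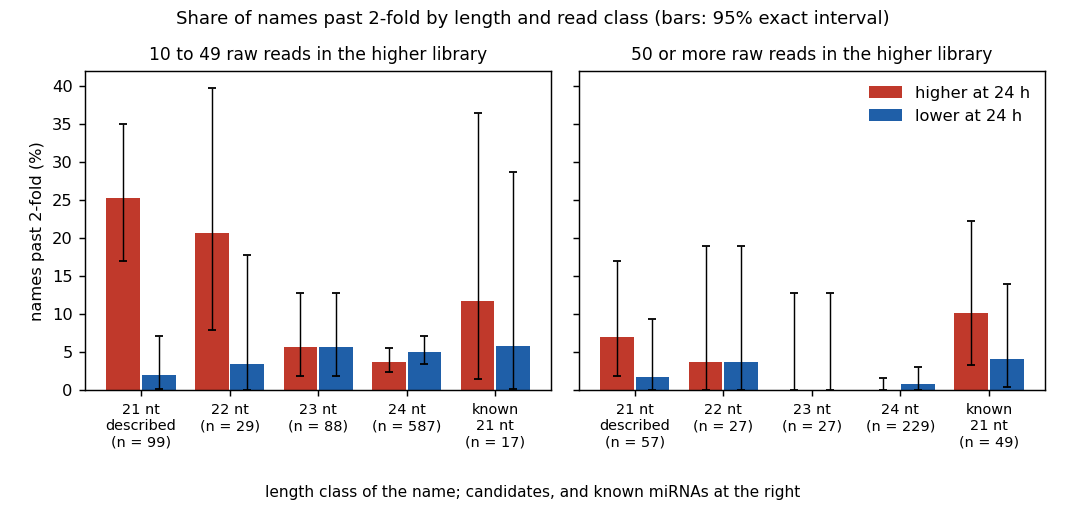
Share of names past 2-fold, higher (red) and lower (blue) at 24 h, by length class, for names with 10 to 49 raw reads (left) and 50 or more (right) in the higher library; lines are exact 95% intervals over names. In the left panel 25 of 99 candidates of 21 nt are higher, against 22 of 587 of 24 nt. In the right panel 4 of 57 are higher, against 5 of 49 known miRNAs of 21 nt.

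A stricter reading asked that the whole counting interval lie beyond 2-fold, and 3 candidates met it on the higher side and 0 on the lower, against 0.721% and 0% of all names. These were PC-5p-410_7468 and the scarce PC-5p-154267_23 and PC-3p-217649_17. PC-5p-154267_23 had 16 raw reads at 24 h, against 1 at 0 h. PC-3p-217649_17 had 16 raw reads at 24 h, against 0 at 0 h. Its fold was 5.09 against a floor of 3 raw reads that stood in for 0, and the lower limit of its counting interval was 3.56. That limit covers counting error only, not the variation between fruits or libraries. Both scarce names passed the read filter only through the 24 h library. An interval wholly above equal was found for 28 names and one wholly below for 15, against 9.46% and 7.21% of all names.

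Among the 36 candidates that reached 100 raw reads, 3 were higher and 1 lower. PC-3p-45119_80 had 111 raw reads at 24 h, against 46 at 0 h, a fold of 2.24. PC-5p-931_3343 had 1507 raw reads at 24 h, against 648 at 0 h, a fold of 2.15 (1.96 to 2.36). PC-5p-410_7468 was the other. PC-3p-5426_650 followed just inside the threshold, with 811 raw reads at 24 h, against 404 at 0 h (fold 1.85, 1.64 to 2.09). The 1 lower name was PC-3p-32264_112, with 62 raw reads at 24 h, against 116 at 0 h, and its fold of 0.491 (0.357 to 0.677) lay at the threshold. Among the next lowest within the threshold, PC-5p-26900_134 had 86 raw reads at 24 h, against 138 at 0 h (fold 0.579), and PC-5p-21316_170 had 146 at 24 h and 203 at 0 h (fold 0.667).

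**Figure D3:**
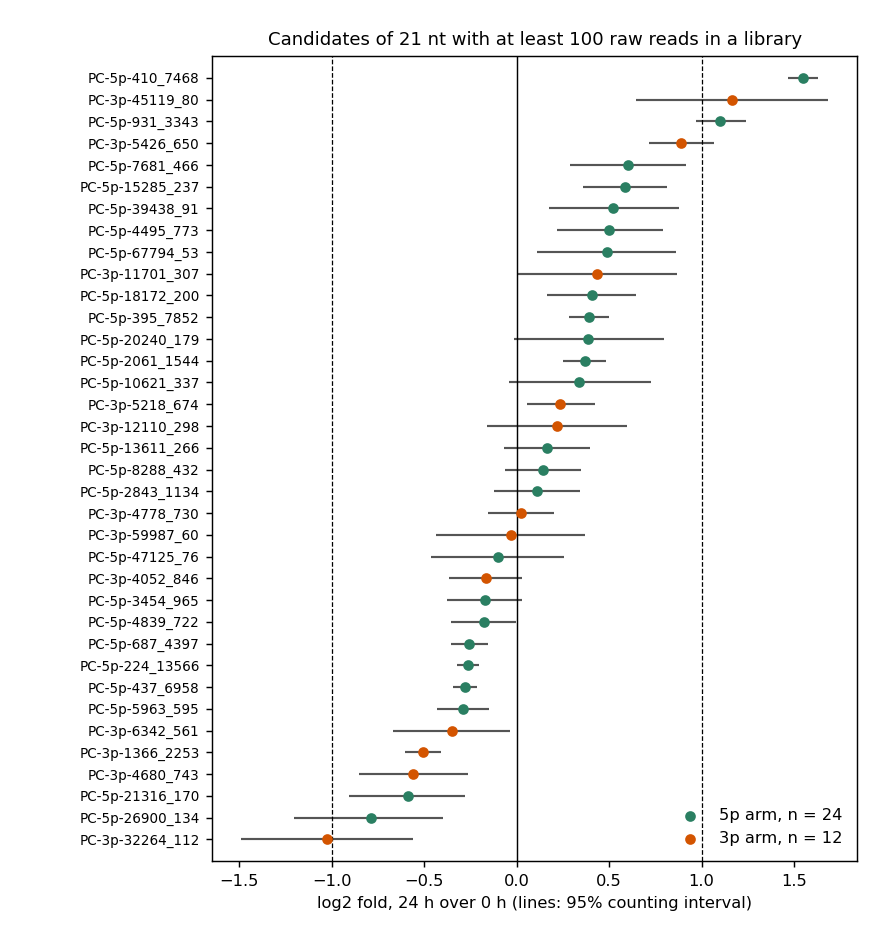
Log2 fold of 24 h over 0 h for the 36 candidates that reached 100 raw reads in a library, ordered by fold, with 95% counting intervals as lines, green for the 5p and orange for the 3p arm. PC-5p-410_7468 stands at 1.55 at the top and PC-3p-32264_112 at -1.03 at the bottom, and most others lie between the dashed lines at 2-fold.

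The other well-covered candidates stayed within 2-fold. PC-5p-7681_466 had 228 raw reads at 24 h, against 139 at 0 h (fold 1.52, 1.22 to 1.88). PC-5p-15285_237 had 424 and PC-5p-18172_200 had 354 at 24 h, against 261 and 247 at 0 h, with log2 folds of 0.59 and 0.41. These 3 lay above equal by their counting intervals. PC-5p-687_4397 had 1537 raw reads at 24 h, against 1696 at 0 h (0.837, 0.780 to 0.897), and PC-5p-14962_242, the same sequence moved by 1 base, had 61 and 58. PC-3p-4680_743 had 167 at 24 h, against 227 at 0 h (0.678, 0.553 to 0.833). Intervals that included equal values were found for abundant names as well, among them PC-3p-4778_730 with 544 raw reads at 24 h, against 494 at 0 h (1.02), PC-3p-4052_846 with 415 against 430 (0.891) and PC-5p-8288_432 with 433 against 362 (1.10).

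The 6 names that missed the read filter had between 3 and 9 raw reads at 24 h and between 2 and 9 at 0 h, and entered no call. The scarcest was PC-5p-1044822_4, with 3 raw reads at 24 h, against 2 at 0 h. Among the 20 names with 2 precursors, 1 was higher and 0 were lower, and 10 lay above and 10 below equal. The 142 names with 1 precursor had 28 higher and 3 lower, with 88 above and 46 below equal. Names with a named partner had 8 higher and 2 lower of 48, and names without had 21 higher and 1 lower of 108 that passed the filter. Over all 1248 names past the filter, 6.25% were higher and 3.69% lower.

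The summed reads of the candidates turned on 1 name. All 162 together summed to 27602 normalized reads at 24 h, against 24818 at 0 h, a fold of 1.11 (1.09 to 1.13). Without PC-5p-410_7468 the sums were 23245 and 23328, a fold of 0.996. Names of the 5p arm summed to a fold of 1.15 (1.13 to 1.17) and names of the 3p arm to 0.991 (0.956 to 1.03), and PC-5p-410_7468 belongs to the 5p arm.

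Uracil was the most frequent first base of the 21 nt candidates. It opened 83 of the 162 sequences (51.2%, 43.3 to 59.2%), adenine 35 (21.6%), cytosine 27 (16.7%) and guanine 17 (10.5%). Candidates of 22 nt began with U in 53.4% of names, those of 23 nt in 44.6% and known miRNAs of 21 nt in 48.5%. Candidates of 24 nt began with U in 20.4% and with A in 59.9%. By reads the order was less clear, since U held 43.7% of the candidates' reads at 24 h and 45.2% at 0 h, and A held 42.6% and 41.6%. The abundant PC-5p-437_6958, PC-5p-410_7468, PC-3p-1366_2253 and PC-5p-687_4397 all begin with A. Of the 29 higher names 14 begin with U, and of the 3 lower names 1.

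**Figure D4:**
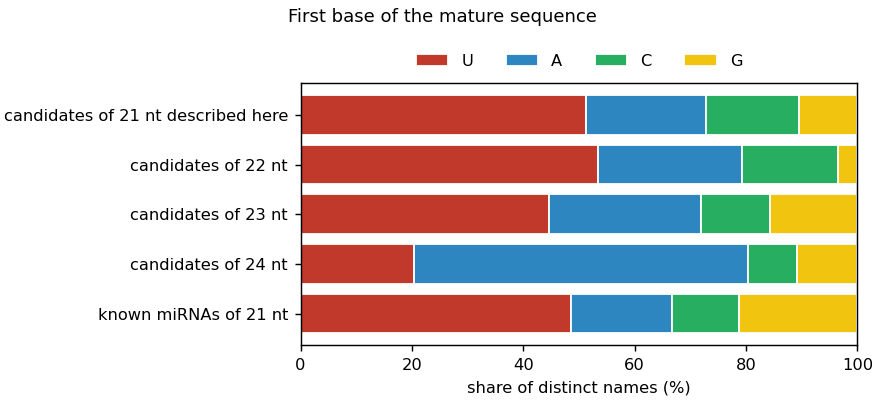
Share of distinct names (horizontal axis, %) by the first base of the mature sequence, for the 162 candidates of 21 nt, candidates of 22, 23 and 24 nt and known miRNAs of 21 nt. U leads in the 21 nt candidates with 51.2%, and A in those of 24 nt with 59.9%.

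The candidates came from both arms of their hairpins, with 88 names (54.3%) from the 5p and 74 from the 3p arm. The 5p names were the more abundant and held 80.3% of the candidates' reads at 24 h and 77.8% at 0 h. A single precursor was listed for 142 names and 2 precursors for 20 (12.3%). The most abundant of these was PC-5p-395_7852, with 1669 raw reads at 24 h, against 1174 at 0 h (fold 1.31, 1.22 to 1.42). Its hairpins lie in windows scf0513135:1419575-1419835 on the plus and scf0513135:1419629-1419889 on the minus strand, which overlap. The name is found exactly in the hairpin of the minus strand and with 1 mismatch in that of the plus strand.

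A partner from the other arm was named for 48 of the 162 candidates (29.6%, 22.7 to 37.3%). The share was 29.3% among candidates of 22 nt, 27.5% among those of 24 nt and 54.5% among known miRNAs of 21 nt. It was higher among abundant candidates, with 19 of 36 names of at least 100 raw reads (52.8%), and names with a partner held 77.3% of the candidates' reads at 24 h and 79.2% at 0 h. There were 41 pairs with at least 1 of the candidates, 11 of them between candidates, and in the other pairs the partner was a name of 22 nt (11), 23 nt (2), 24 nt (15) or 1 of the left-out names of 21 nt (3). The 2 arms lay on the same side of equal in 25 of the 41 pairs, against 89 of 174 pairs among all candidates.

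The pair of PC-5p-410_7468 was the most uneven among pairs of 21 nt candidates. Its partner PC-3p-387861_10 had 14 raw reads at 24 h, against 4 at 0 h, beside 5149 and 1626 for the 5p arm, an arm ratio of 376 over both libraries. Both arms were higher at 24 h, with log2 folds of 1.55 for the 5p and 1.58 for the 3p arm, and 20 bases of the duplex were paired. PC-5p-224_13566 and its partner of 22 nt, PC-3p-5291_667, both had fewer reads at 24 h, the partner with 381 raw reads at 24 h, against 441 at 0 h. PC-5p-26900_134 and PC-3p-1366_2253 were both lower within the threshold, with log2 folds of -0.79 and -0.51.

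In other hairpins the arms went opposite ways. PC-5p-2061_1544 had 1452 raw reads at 24 h, against 1038 at 0 h (log2 fold 0.37), while its partner of 22 nt, PC-3p-1795_1758, had 686 at 24 h and 797 at 0 h (-0.33). PC-3p-32264_112, the lower candidate described above, shares a hairpin with PC-5p-1433_2156 of 22 nt, which had 2318 raw reads at 24 h, against 1463 at 0 h (0.55). These 2 names are separated by 98 bases in the hairpin and only 4 of their bases paired. PC-5p-486865_8, also called lower, had 5 raw reads at 24 h, against 14 at 0 h, beside 24715 and 14006 for PC-3p-132_23619 of 22 nt.

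**Figure D5:**
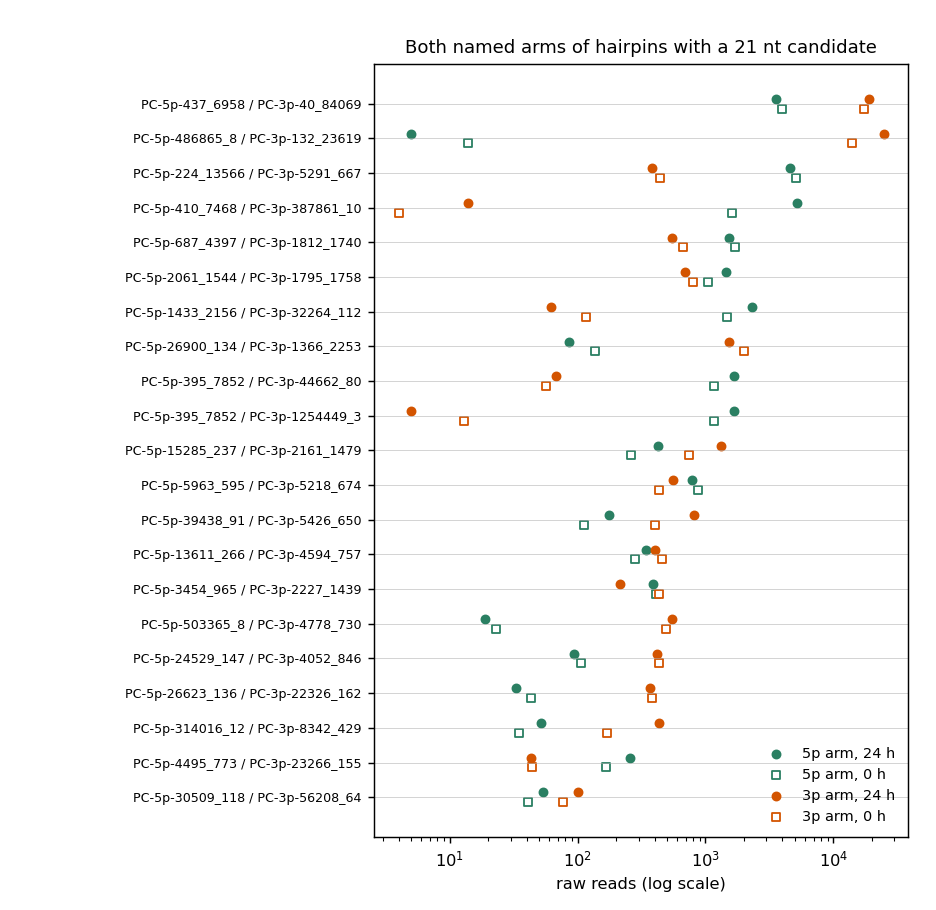
Raw reads (log scale) of both named arms for 21 pairs that hold a 21 nt candidate and a name with at least 100 raw reads, green for 5p and orange for 3p, filled circles for 24 h and open squares for 0 h. The arms of PC-5p-410_7468 lie furthest apart among pairs of 21 nt candidates, and both have more reads at 24 h.

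When each pair was folded as a duplex, 24 pairs with arms of 21 or 22 nt had a median of 14.5 paired bases. Both 3′ overhangs were counted as between 0 and 3 bases in 11. Overhangs were counted from the ends of the folded stretch, which can hold an unpaired base beside the last pair. Each count can therefore be off by 1 base, and an overhang of 2 bases can be counted as 1. How many pairs had exactly 2 bases at both ends was therefore not determined. Pairs of known miRNA names on 1 hairpin, folded the same way, had a median of 17 paired bases. Both of their overhangs were counted as between 0 and 3 bases in 20 of 23, with the same limit of 1 base. Pairs of a candidate with a 24 nt name had a median of 11 paired bases, and counted overhangs of 0 to 3 at both ends in 1 of 15. The duplexes of PC-5p-687_4397, PC-5p-2061_1544 and PC-5p-5963_595 with their partners had 17, 16 and 19 paired bases and overhangs within this range. Those of PC-5p-224_13566 and PC-5p-15285_237 had 14 paired bases each and overhangs longer than 3 bases at both ends.

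For 23 of the 41 pairs both names could be found without mismatch in a hairpin at hand, and in 5 of these the names of the 5p and the 3p arm shared bases. PC-5p-4495_773 and PC-3p-23266_155, of 24 nt, share 17 bases of 1 stretch of their hairpin, and PC-5p-80877_44 and PC-3p-177334_20 share 20. PC-5p-486865_8 and PC-3p-132_23619 share 5. In such hairpins the arm in the name does not say that the small RNAs face each other in a stem.

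Some candidates were complementary to each other, and some of these had hairpins on opposite strands of a locus. Reverse complements, over at least 18 bases with at most 3 mismatches, were found for 15 pairs of candidates, 4 on the same hairpin and 11 on different ones. PC-5p-931_3343 and PC-3p-5426_650 are complementary over 20 bases with 1 mismatch. Their hairpins lie in window scf0513168:261466-261726 on the minus strand and scf0513168:261465-261725 on the plus strand, where PC-3p-5426_650 has 1 mismatch to its own hairpin, and both had more reads after storage, by the folds given above. A further candidate from the plus strand hairpin, PC-5p-39438_91, had 176 raw reads at 24 h, against 113 at 0 h (fold 1.43, 1.13 to 1.84). PC-5p-67794_53 and PC-5p-387620_10 are complementary over 20 bases with 0 mismatches, and had 153 and 18 raw reads at 24 h against 101 and 7 at 0 h.

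Few candidates resembled known miRNAs. Of the 162, 9 matched a listed known miRNA over at least 18 bases with at most 3 mismatches, 5 on the same strand and 5 as reverse complement, PC-3p-65180_55 in both ways. PC-5p-5963_595 is mdm-miR535d_1ss7CT moved by 1 base, with 0 mismatches over 20 bases. It had 779 raw reads at 24 h, against 878 at 0 h (fold 0.819, 0.743 to 0.903), and the known name had 27761 at 24 h and 30627 at 0 h (0.837, 0.823 to 0.851). Its partner PC-3p-5218_674, which pairs with it at 19 bases, had 558 at 24 h and 437 at 0 h (1.18, 1.04 to 1.34), so the 2 arms of this hairpin differed in opposite directions. PC-5p-437_6958 is mdm-MIR1511-p5_1ss12AG moved by 1 base, and with 3570 raw reads at 24 h, against 3997 at 0 h, it was far more abundant than the known name, which had 14 and 11.

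Some candidates were related to the miR156 family, which in other plants directs the cleavage of SPL transcription factor mRNAs. PC-5p-280652_13 differs from sbi-miR156e_L+1_1ss6AG at 1 base and had 2 raw reads at 24 h, against 12 at 0 h, among the 3 lower names, while the known name had 499 at 24 h and 522 at 0 h. Its normalized reads give a fold of 0.0909 while its raw reads times the library factors give 0.154. The deposited normalized values are whole numbers. PC-5p-47125_76 shares its seed with mdm-miR156a_L+1 and is the reverse complement of osa-miR156h-3p_2ss9CT14T- with 1 mismatch, and it had 132 raw reads at 24 h, against 131 at 0 h. The windows of PC-5p-280652_13 (scf0513091:124124-124384, minus strand) and PC-5p-47125_76 (scf0513091:123282-123542, plus strand) are neighbours on 1 scaffold. On the opposite strand of that last window (scf0513091:123281-123542) lies a precursor of PC-5p-3454_965, whose normalized reads were 332 at 24 h and 374 at 0 h. Its hairpins in this window and in scf0513058:367812-368073 (plus strand) both hold the whole of mdm-miR156a_L+1, and the candidate overlaps the last 13 bases of that miRNA. It is found exactly in the hairpin on scf0513058 and with 1 mismatch in the other.

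PC-3p-65180_55 holds all 20 bases of ptc-MIR530b-p3_1ss12CT and 1 more at its 3′ end. It had 45 raw reads at 24 h, against 12 at 0 h (fold 3.45), the known 3p name had 8 in each library, and the opposite strand csi-miR530a_2ss20TC21GT had 48 at 24 h and 21 at 0 h (2.16, 1.24 to 3.71). PC-5p-161243_22, which overlaps the partner strand of miR167, a regulator of auxin response factors, had 12 raw reads at 24 h, against 16 at 0 h. Looser complements were PC-5p-99177_36 to miR399, which acts in phosphate supply, and PC-3p-178262_20 to a name of miR2111, each with 3 mismatches.

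The candidates were otherwise diverse in sequence. Their seeds were of 157 kinds, 153 of them in 1 candidate each. In 11 groups 26 candidates matched each other over at least 18 bases with at most 2 mismatches. The group of PC-5p-4495_773 had 5 names and summed to 383 raw reads at 24 h, against 263 at 0 h (fold 1.35, 1.15 to 1.58), with more normalized reads at 24 h in 4 names and 1 called higher. The group of PC-3p-106225_33, PC-3p-263162_14 and PC-3p-217649_17 summed to 51 raw reads at 24 h, against 11 at 0 h (4.40, 2.20 to 9.11), and all 3 names were higher. Each of the 3 passed the read filter only through the 24 h library, with 5, 6 and 0 raw reads at 0 h. The partner of PC-3p-106225_33, PC-5p-138174_26 of 22 nt, had 26 raw reads at 24 h, against 9 at 0 h. The sources used here do not say how reads were divided between such near-identical names.

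The 3 names of the last group contain the bases CGTCGGC or the reverse complement GCCGACG, which recur among the candidates of this fruit. The string was present on either strand in 6 of the 162 candidates of 21 nt (3.70%), in 22.4% of those of 22 nt, in 6.73% of those of 24 nt and in 7.59% of all candidates. The 6 names summed to 444 raw reads at 24 h, against 318 at 0 h (fold 1.29, 1.11 to 1.49). All 6 had more normalized reads at 24 h and 4 were called higher, against 18.6% of the candidates of 21 nt and 6.25% of all names past the filter. However, 3 of these 4 are the near-identical names of the last group, which passed the filter only through the 24 h library. The fourth, PC-5p-109400_32, had 23 raw reads at 24 h, against 10 at 0 h, and its counting interval included equal values. The share called higher among all candidates with the string was not determined. The most abundant, PC-5p-13611_266, had 343 raw reads at 24 h, against 283 at 0 h (fold 1.12, 0.953 to 1.31). A second string, ATCGTTA or its complement TAACGAT, was chosen after the sequences were seen and was present in 8 candidates (4.94%), against 6.37% of all candidates. What these strings belong to was not examined.

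Targets in the degradome were listed for 24 of the 162 candidates (14.8%), in 32 pairs of a candidate and a gene. The share was 3.45% for candidates of 22 nt, 0.580% for those of 24 nt and 37.9% for known miRNAs of 21 nt. The category runs from 0, where the predicted site is the highest point of the transcript, to 4, where there is only 1 read. Of the 32 pairs 3 were of category 0, 9 of category 2, 1 of category 3 and 19 of category 4. The median pair had 1 degradome read, and 8 had less than 1, a fraction that the column's name relates to reads with several places. The library is a mixture of fruit, so it gives no comparison of storage times.

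The listed p-value was under 0.05 for 3 of the 32 pairs, from 2 candidates. It was under 0.05 for 32 of 65 pairs of known miRNAs of 21 nt and 49 of all 152 listed pairs. PC-5p-931_3343 was paired with gene34668-v1.0-hybrid at site 1076 and gene34672-v1.0-hybrid at site 1130, both of category 0 with the low alignment score of 1.5, a listed p-value of 0.00639 and 1.5 reads each. Both genes have no annotation in the list. Their reads are fractional and equal, and whether both pairs rest on the same reads, divided between the genes, was not examined. They need not be 2 separate cleavage events. PC-5p-5963_595 was paired with gene07187-v1.0-hybrid at site 1152, of category 0 with 7 reads, an alignment score of 4 and a listed p-value of 0.00373. This gene is also a listed target of the known mdm-miR156b at the same site with the better score of 1, so the reads are shared between both predictions. At the next base, 1153, with 2 reads, PC-5p-280652_13 (score 2.5) and PC-5p-47125_76 (score 4) were paired with the same gene, as was mdm-miR156a_L+1 (score 1). Both of these candidates were also paired with gene06295-v1.0-hybrid at site 946, by 1 read, as were names of miR156.

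The remaining pairs had listed p-values of 0.0794 or more. Of the 29 target genes 11 were annotated. PC-5p-2843_1134, with 339 raw reads at 24 h, against 290 at 0 h, was paired with an arabinose kinase gene, which acts on a sugar of the cell wall (category 2, 2 reads, p-value 0.0794). PC-5p-67794_53 was paired with a gene of the alpha/beta-hydrolase superfamily and PC-5p-39307_92 with one for ankyrin repeat-containing protein 2, each of category 2 with 2 reads. Category 4 pairs, with 1 read each, included PC-3p-1366_2253 with a fructose-2,6-bisphosphatase gene, a regulator of sugar metabolism, PC-3p-87823_40 with a pectin lyase-like gene, of a superfamily that includes cell wall enzymes, PC-5p-345020_11 with alanine aminotransferase 2 and PC-5p-10656_336 with a coatomer beta subunit gene. PC-3p-59987_60 had 4 target genes, each with 0.25 reads. The site lay 10 bases from the end of the aligned range in 30 of 31 pairs with a range, the place where plant miRNAs cut, and 11 bases from it for PC-5p-5963_595. A list of this kind is built on that position, so this is no separate support for the pairs.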

How the data were processed

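Fruit small RNAs were sequenced in 2 libraries (24 h and 0 h) and a degradome in 1. The raw counts per mature sequence are the authors' own, from ACGT101-miR 4.2 run against miRBase 19 and Fragaria vesca genome 1.0. The normalized scores, as deposited, are whole numbers close to raw reads multiplied by 0.846 (24 h) or 0.917 (0 h), by a formula that the sources used here do not state. Degradome p-values, scores and the signal (reads per site) are as deposited by the authors, who ran CleaveLand 3.0 and ACGT301-DGE 1.0. Names were counted once. For folds, 3 raw reads stood in for 0. Folds of names under the read filter were computed but used only in the alternative without it. Intervals are Clopper-Pearson for shares and conditional binomial for folds. Duplexes were folded with RNAduplex 2.7.2. Hairpin sequences and positions come from the study's list, held in part. Python 3.11.15, pandas 2.3.3, scipy 1.17.1, matplotlib 3.10.9, R 4.3.3, edgeR 4.0.16 and DESeq2 1.42.0 (both for scaling factors only) were used, and the calling procedure was tested on simulated data. The members, lists and alternatives were chosen with earlier results of these data known. Named are, by rule, the 15 candidates with most raw reads, the 8 highest and 8 lowest folds from 100 raw reads, those with partners or 2 precursors from 100 raw reads, with degradome targets, with matches to known names, in the largest groups, with the first string or past the stricter limits, and those that the paper names, of which the ones with most reads are described. PC-5p-486865_8, PC-5p-387620_10, PC-5p-18172_200, PC-5p-8288_432, PC-5p-1044822_4, PC-5p-138174_26 and the pairs that share bases were picked with their values in view.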

Additional observations from a re-analysis of the deposited data

How the results depend on the processing

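From 50 raw reads upwards, 4 candidates of 57 (7.02%) were higher and 1 was lower. The share called higher was thus smaller than the 18.6% (29 of 156) from 10 raw reads upwards. With the counting interval wholly beyond 2-fold, a stricter call on the same 156 names, 3 were higher and 0 lower. The share with a named partner was 52.8% from 100 raw reads and 78.2% weighted by reads. Degradome targets remained for 2 candidates at a listed p-value under 0.05, for 10 at categories 0 to 2 and for 2 at category 0. Under the other alternatives 24 to 34 candidates were higher and 2 to 3 lower. Without scaling, and with scaling to the total of listed miRNAs, the median log2 fold of all names moved to 0.11 in both cases and that of the candidates to 0.28 and 0.29, and PC-3p-32264_112 was no longer called. In all, 14 candidates changed direction under some scaling, none of them called, and 31 of the 32 calls were kept under each scaling. No paired analysis was possible because each storage time has 1 library, and no library could be left out for the same reason. The precision of scarce names is limited by their 10 to 49 reads.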
